A study of Drosophila melanogaster with 4 samples.

Results

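Transcripts of 8 genes of the Hsp90 chaperone system were followed in fly heads, out of 16680 genes in the deposited table. They were chosen by gene name, with earlier results of these data known. Hsp83 encodes the cytosolic Hsp90, Gp93 its paralog in the endoplasmic reticulum and Trap1 its paralog in mitochondria. Hop, Cdc37, CHIP and Fkbp59 encode cochaperones, and Hsf encodes the heat shock transcription factor. All 8 had a row in the table. Hop there is the gene that the study calls Stip1, Fkbp59 is spelled FKBP59, and CHIP is STUB1 in the current annotation. The Janus kinase gene hop is a different row, at 8.91 and 9.36 FPKM in heads without and 10.2 and 10.3 FPKM in heads with phenotypic variations, and is no member of this family.

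The 4 libraries came from adult males carrying Kr[If-1], a gain-of-function allele of Krüppel whose molecular nature is not characterized and which sensitizes the eye to a loss of developmental robustness. The stock also carries the marker b1. Both groups were F1 progeny of parents exposed to Cr(VI), given as K2Cr2O7 in the food at 10 µM, and each group had 2 biological repeats of 10 pooled heads. One group showed no eye phenotype and the other did. Flies of unexposed parents were not analysed here, so the comparison is between exposed lineages that differ in phenotype and not between exposure and its absence. The sources used here give no age for the flies and do not say whether the repeats came from separate crosses. The p-values measure the spread between these libraries.

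Hsp90 is an ATP-driven chaperone that brings kinases, steroid receptors and other signaling proteins to a mature state. In flies a loss of its function exposes variation in form that is otherwise silent, which is why Hsp83 is called a capacitor of phenotypic variation. Cochaperones steer its cycle: Hop links Hsp70 to Hsp90, Cdc37 brings in kinases, Fkbp59 is a peptidyl-prolyl isomerase with tetratricopeptide repeats, and CHIP is a ubiquitin ligase that marks chaperone clients for degradation. Hsf binds heat shock elements and drives the transcription of Hsp70, the small heat shock protein genes and Hsp83 under stress. In one model Hsp90 binds Hsf in unstressed cells and holds it back, which was not tested here.

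Head and eye markers were present, with all 15 of 15 at a mean of at least 1 FPKM, among them the opsin gene ninaE at 544 to 948 FPKM. The series' design text mentions ovaries beside heads. All 14 matched ovary markers and all 13 testis markers stayed under 1 FPKM in every library, with the eggshell gene Vm26Aa and the testis genes Mst84Da, comr and Mst35Bb listed at 0 in all 4. Summed muscle markers lay at 7091 and 7970 FPKM without and 5074 and 5562 FPKM with phenotype, and 12 of 14 were lower with no overlap, where 18.3% of all genes tested were. Digestive enzyme markers summed to 495 FPKM in repeat 1 without phenotype against 59.4 to 252 FPKM in the other libraries. Head and eye markers summed to 1956 and 2329 FPKM without and 2299 and 2914 FPKM with phenotype. Fat body markers summed to 2052 to 3708 FPKM, with 7 of 15 higher and 8 lower, and Fbp2 and the larval serum protein gene Lsp1alpha fell with phenotype (both adjusted p = 0.077 from limma). The part of these shifts in the values below was not tested. In heads, fewer cells of a type and less RNA per cell cannot be told apart. Total read numbers are unknown. A single read on 1000 bp was worth roughly 0.0179 to 0.0207 FPKM, as estimated from the lowest values of short genes. By this measure the members rested on 1757 reads (CHIP in repeat 1 without phenotype) to 92839 reads (Hsp83 in repeat 1 with phenotype).

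Hsp83 and Hop had the largest differences among the 8 genes, with higher FPKM in heads with phenotype. Hsp83 (3L, 3192969 to 3197059, dm6) had 246 and 308 FPKM in repeats 1 and 2 of heads without phenotype. In heads with phenotype it had 562 and 458 FPKM. Both values with phenotype thus lay above both without, by 1.49-fold between the closest pair and 2.28-fold between the most distant. The group means were 277 ± 43.2 and 510 ± 73.4 FPKM (SD, n = 2), a ratio of 1.84. The log2 fold change of FPKM + 1 was 0.88 (standard error 0.17, 95% interval 0.43 to 1.33). It did not pass the test, which covered the 10194 genes averaging 1 FPKM or more and had a threshold of 0.1 (adjusted p = 0.14 from limma). Of these genes 98.9% had a lower log2 fold change. Among the 537 genes that averaged 200 FPKM or more over all 4 libraries, 9 exceeded Hsp83 in log2 fold change. From the largest down these were to, Hsp70Bb, Mtk, Hsp70Aa, Dpt, Rfabg, Drsl4, AttC and Dro. Of them, Hsp70Bb and Hsp70Aa are heat-inducible chaperone genes. The genes to, Hsp70Bb, Mtk, Hsp70Aa, Dpt and Drsl4 were under 200 FPKM in both libraries without phenotype. They passed this filter only through their values with phenotype, so the filter was not independent of the difference being ranked. By level, Hsp83 ranked 443 and 344 of 16680 rows without phenotype and 193 and 238 with phenotype.

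Hop (2L, 295122 to 297449) was at 18.6 and 19.3 FPKM in the repeats without phenotype. With phenotype it had 31.6 and 27.9 FPKM. The repeats without phenotype were 0.056 apart on the log2 scale and those with phenotype 0.18, while the closest libraries of different groups were 0.51 apart. The means were 18.9 ± 0.544 and 29.7 ± 2.65 FPKM (SD, n = 2), which is a ratio of 1.57 (log2 fold change of FPKM + 1 0.62, standard error 0.092, 95% interval 0.38 to 0.86, adjusted p = 0.12 from limma). Hop had the smallest adjusted p of the family. With a filter of 5 FPKM in place of 1 FPKM, which tests 8094 genes, it passed (adjusted p = 0.092 from limma).

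**Figure D1:**
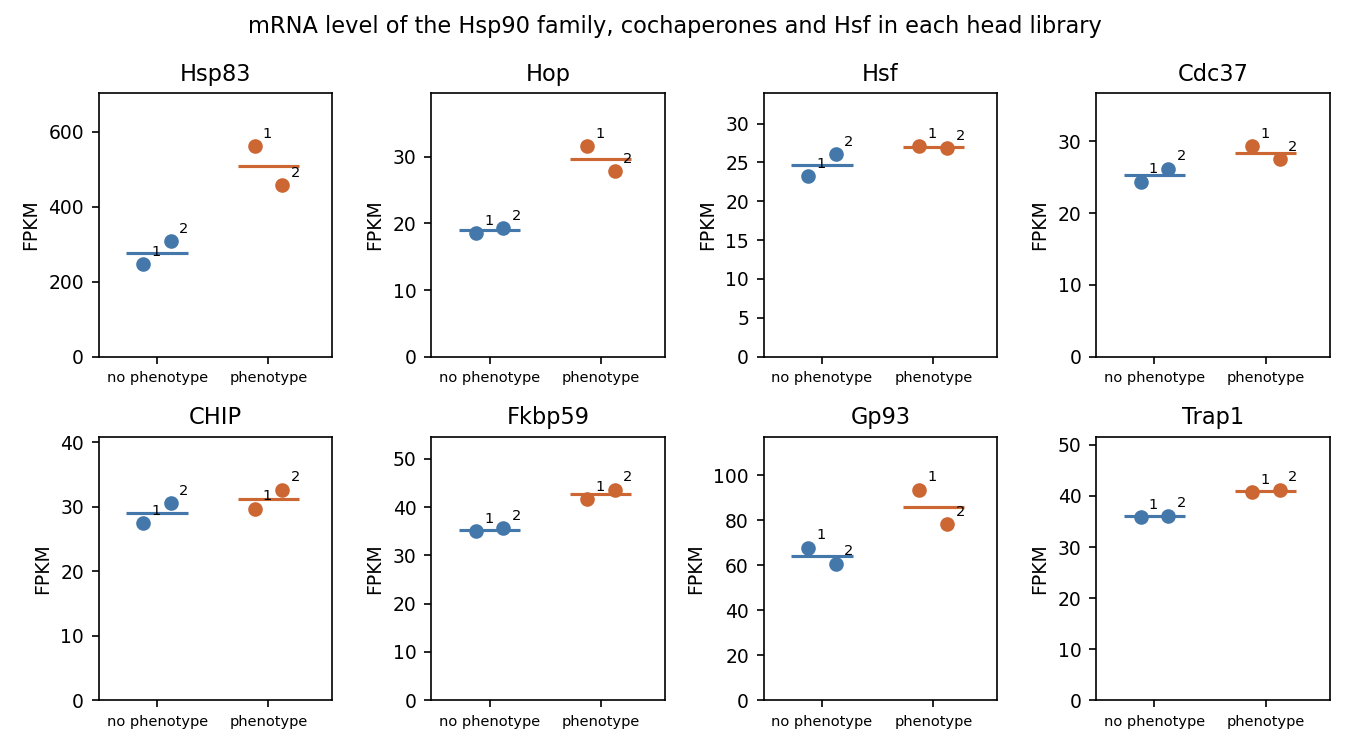
FPKM of each of the 8 genes (vertical axis, starting at 0) in the 4 head libraries. Points are libraries, numbered by repeat, and lines are group means. Hsp83 and Hop are well apart between the groups, and the groups of CHIP overlap.

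The other cochaperones of the family differed less. Fkbp59 (2L, 9888005 to 9890119) was at 35.1 and 35.6 FPKM in heads without phenotype and at 41.7 and 43.6 FPKM in those with it. Its repeats lay within 0.065 of each other on the log2 scale, and the groups were at least 0.22 apart. The log2 fold change of FPKM + 1 was 0.26 (95% interval 0.062 to 0.47, adjusted p = 0.17 from limma). Cdc37 (3L, 1795392 to 1797307) was at 24.4 and 26.2 FPKM in the first group and 29.3 and 27.5 FPKM in the second. Its lowest library with phenotype was 1.05-fold above the highest without, less than the distance between repeats (log2 fold change of FPKM + 1 0.16, 95% interval -0.058 to 0.38, adjusted p = 0.31 from limma). CHIP (2L, 10437548 to 10439240) was at 27.5 and 30.6 FPKM without phenotype, and with it at 29.7 and 32.6 FPKM. Its groups overlapped, and its log2 fold change of 0.10 had an interval from -0.16 to 0.36 (adjusted p = 0.55 from limma).

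The Hsf groups differed by less than the repeats without phenotype did. Hsf (2R, 18130303 to 18134634) was at 23.3 and 26.1 FPKM in the absence and 27.1 and 26.9 FPKM in the presence of the phenotype. The gap between the groups was 0.042 on the log2 scale, and the repeats without phenotype were 0.16 apart. Its log2 fold change of FPKM + 1 was 0.13 (95% interval -0.10 to 0.36, adjusted p = 0.41 from limma). An increase of over 0.36 on the log2 scale lies outside this interval. Hsf activity depends on trimer formation and modification of the protein, which mRNA levels do not measure.

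Of the organelle paralogs, Gp93 differed more than Trap1. Gp93 (3R, 27948711 to 27952151), which folds secreted and membrane proteins, was at 67.8 and 60.7 FPKM in heads without and 93.6 and 78.3 FPKM in heads with phenotype. The groups did not overlap, but the repeats with phenotype were farther apart (0.25 on the log2 scale) than the closest libraries of different groups (0.21). Its log2 fold change of FPKM + 1 was 0.41 (95% interval 0.077 to 0.75, adjusted p = 0.18 from limma). Trap1 (2R, 6633647 to 6636262), a mitochondrial chaperone, was at 35.9 and 36.2 FPKM without phenotype. Heads with phenotype had 40.8 and 41.2 FPKM. Its repeats lay within 0.015 of each other on the log2 scale in both groups, and the groups were 0.17 apart (log2 fold change of FPKM + 1 0.18, 95% interval -0.011 to 0.38, adjusted p = 0.23 from limma).

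As a family, all 8 genes passed the filter on low values and all 8 had a higher mean with phenotype, as did 62.7% of all genes tested. In 7 of 8 the groups did not overlap, against 41.3% of all genes tested that were higher without overlap. With libraries rescaled by median ratios, which moves the median of all genes from 0.070 to -0.0064 on the log2 scale, 5 of 8 did not overlap (Hsp83, Hop, Fkbp59, Gp93 and Trap1) against 29.2% of all genes, and all 8 log2 fold changes remained above 0, down to 0.020 for CHIP. The members' median log2 fold change was 0.22. None of the 8 passed at an adjusted p under 0.1 from limma, as 0.0883% of all genes did. At an unadjusted p under 0.05, 4 of 8 were higher (Hsp83, Hop, Fkbp59 and Gp93), where 16.0% of all genes were. In 4 genes (Hsp83, Hop, Fkbp59 and Trap1) the gap between the groups exceeded the distance between the repeats of either group, as it did with higher FPKM in 19.2% of all genes tested.

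**Figure D2:**
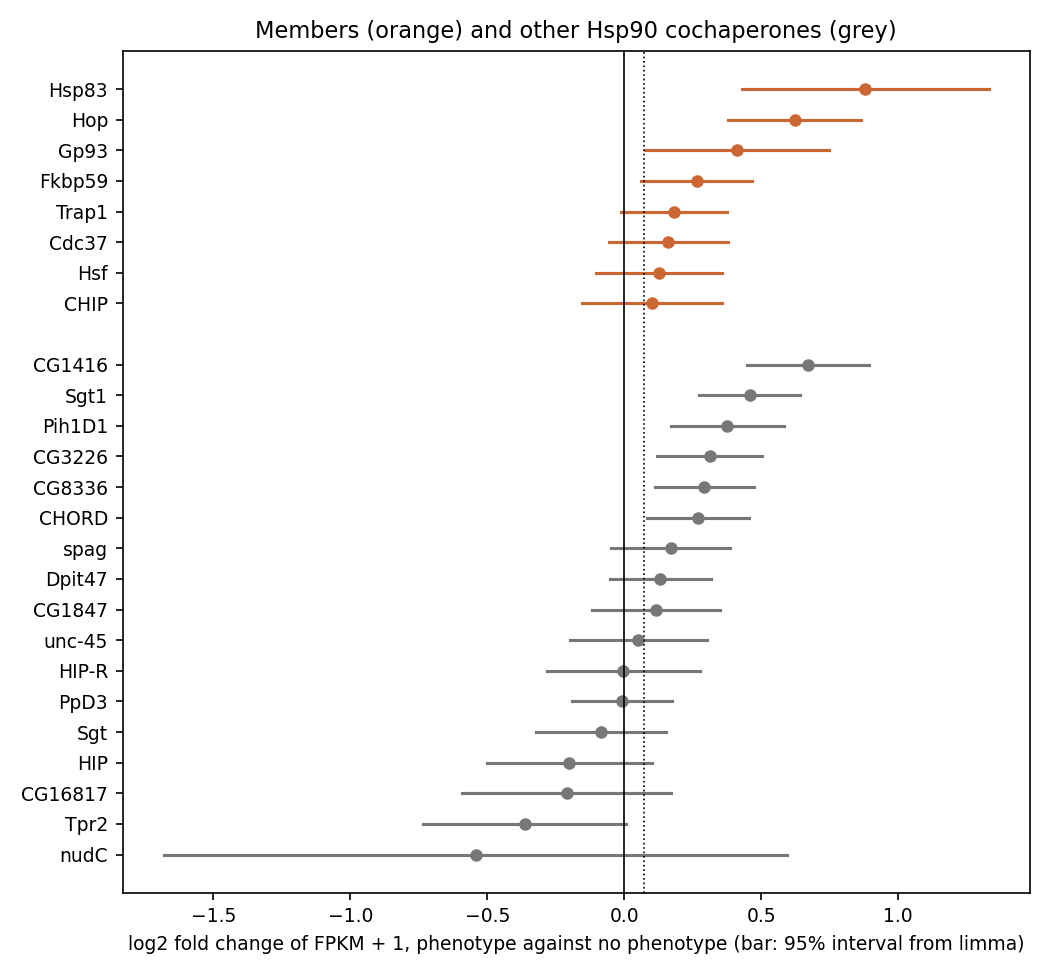
Log2 fold change of FPKM + 1 with its 95% interval from limma (horizontal axis) for the 8 members (orange) and 17 other Hsp90 cochaperones (grey). The solid line marks 0 and the dotted line the median of all genes tested, 0.070. Hsp83, Hop, Gp93 and Fkbp59 have intervals above 0.

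In the order of levels, Hop had a different place in the 2 groups. FPKM are per length of transcript, so genes can be ranked within a library. Hsp83 came first and Gp93 second in all 4 libraries. Trap1 and Fkbp59 were next, less than 1 FPKM apart in the libraries without phenotype, and Fkbp59 was above Trap1 in those with it. Hop was the lowest of the 8 in both libraries without phenotype. With phenotype it was above Cdc37 and Hsf in both libraries, and above CHIP in repeat 1. CHIP was above Cdc37 and Cdc37 above Hsf in all 4 libraries, but over the libraries the range of Cdc37 overlapped those of both others.

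Within the libraries, the share of Hsp83 among its paralogs was higher with phenotype. Of the summed FPKM of Hsp83, Gp93 and Trap1, Hsp83 made up 70.4% and 76.1% in the 2 libraries without phenotype and 80.7% and 79.3% in those with phenotype. The share of Gp93 was 19.4% and 15.0% in the first group and 13.4% and 13.6% in the second, and that of Trap1 10.2% and 8.94% against 5.86% and 7.14%. None of the 3 shares overlapped between groups. As parts of the same sum they are not independent, and both Gp93 and Trap1 had higher FPKM with phenotype. The ratio to Hsp83 was lower with no overlap in 91.6% of all other genes tested. The lower shares of Gp93 and Trap1 are thus not a result about these paralogs. The sum itself was 350.1 and 404 FPKM without and 697 and 578 FPKM with phenotype.

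The ratios of Hsp83 to its cochaperones and paralogs are given as a description, with Hsp83 as their common term. There were 13.3 and 15.9 FPKM of Hsp83 per FPKM of Hop in heads without phenotype, and 17.8 and 16.5 in heads with it. The log2 ratio of Hop to Hsp83 was thus lower by a difference of -0.23 with phenotype, and it varied by 0.18 (SD, n = 2) in the group without. It was -0.10 without repeat 1 and -0.37 without repeat 2 of the heads without phenotype. Cdc37, CHIP and Trap1 had larger gaps, with differences of -0.72, -0.78 and -0.70 in the log2 ratio to Hsp83. For CHIP this is a fold of 0.583. Fkbp59 and Gp93 lay between, at -0.61 and -0.47, and Gp93 was at -0.23 without repeat 1 and -0.71 without repeat 2 of the same group. Per FPKM of the 4 summed cochaperones there were 2.34 and 2.75 FPKM of Hsp83 without and 4.25 and 3.48 with phenotype. A ratio within a library does not depend on the scaling between libraries. All 7 ratios computed, the sum included, were lower with no overlap, but so was the ratio to Hsp83 of 91.6% of all other genes tested, so the direction is not a result about the cochaperones. Each ratio had an exact permutation p of 0.333 (two-sided), the smallest that 2 libraries against 2 allow and therefore below no threshold. The ratios share Hsp83 as denominator, so they are not independent of each other.

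**Figure D3:**
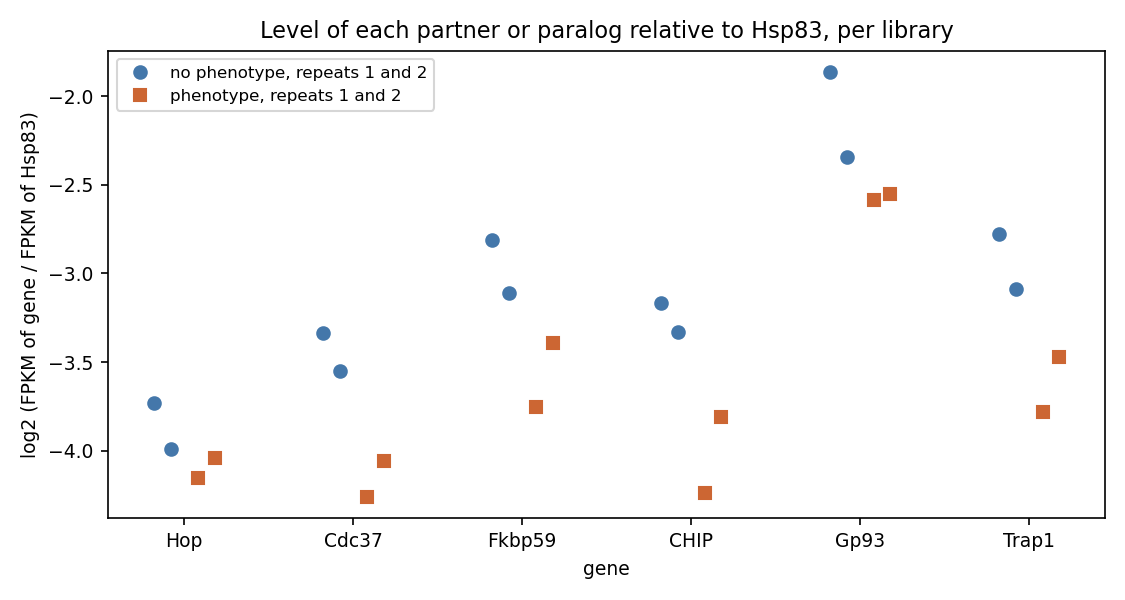
Log2 ratio of the FPKM of each cochaperone or paralog to that of Hsp83 (vertical axis) in each library, by gene. In all 6 genes the 2 libraries with phenotype (squares) lie below the 2 without (circles), as 91.6% of all other genes do, and the difference of means is smallest for Hop.

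Other cochaperones of Hsp90 went in both directions. Of 18 such genes, 17 passed the filter on low values, and shu, a germline FKBP protein gene, was at 0.08 to 0.15 FPKM. Of the 17, 10 had higher (62.7% of all genes) and 7 lower means with phenotype. The groups did not overlap in 8 that were higher (41.3% of all genes) and 3 that were lower (18.3% of all genes), and the median log2 fold change was 0.12. CG1416, named Aha1 in RefSeq after the activator of the Hsp90 ATPase, had the largest difference, from 23.2 and 20.9 FPKM to 36.0 and 35.3 FPKM (log2 fold change of FPKM + 1 0.67, 95% interval 0.45 to 0.89, adjusted p = 0.11 from limma). Its log2 fold change was thus close to that of Hop. The most abundant was CG16817, or p23, which stabilizes the closed form of Hsp90. It was at 104 and 132 FPKM without and 105 and 97.4 FPKM with phenotype, and its groups overlapped (adjusted p = 0.42 from limma). Tpr2, a J-domain protein with tetratricopeptide repeats, was at 94.96 and 120 FPKM in the first group and 85.2 and 80.5 FPKM in the second (log2 fold change -0.36, adjusted p = 0.22 from limma). For nudC, a single library stood apart: repeat 2 without phenotype had 48.0 FPKM, and the other 3 had 19.2 to 21.4 FPKM. No gene of the list passed (smallest adjusted p = 0.11 from limma). At an unadjusted p under 0.05 there were 6 genes, all higher, where 16.0% of all genes were. They were CG1416, Sgt1, Pih1D1, CG3226, CG8336 and CHORD, the last 5 named after their values were seen.

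The heat-inducible chaperone genes, many of them targets of Hsf, had a higher median difference than the members. Their 16 genes summed to 464 and 629 FPKM without and 3643 and 1738 FPKM with phenotype, and the members to 479 and 542 against 856 and 736 FPKM. All 16 had a higher mean with phenotype (62.7% of all genes), 13 of them without overlap (41.3% of all genes), with a median log2 fold change of 2.15. Hsp70Bbb, at 10.3 and 23.2 FPKM in one group and 223 and 106 FPKM in the other, shares reads with the other Hsp70 copies, of which Hsp70Aa and Hsp70Bb were the most abundant genes of the list, at 57.0 to 909 and 36.9 to 815 FPKM. No gene of the list passed (smallest adjusted p = 0.11 from limma, 12 higher at an unadjusted p under 0.05, where 16.0% of all genes were). In the list the log2 fold changes ran from 0.098 to 3.24. Hsp83, at 0.88, lay between stv at 0.45 and DnaJ-1 at 1.47, with no gene of the list closer to it.

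**Figure D4:**
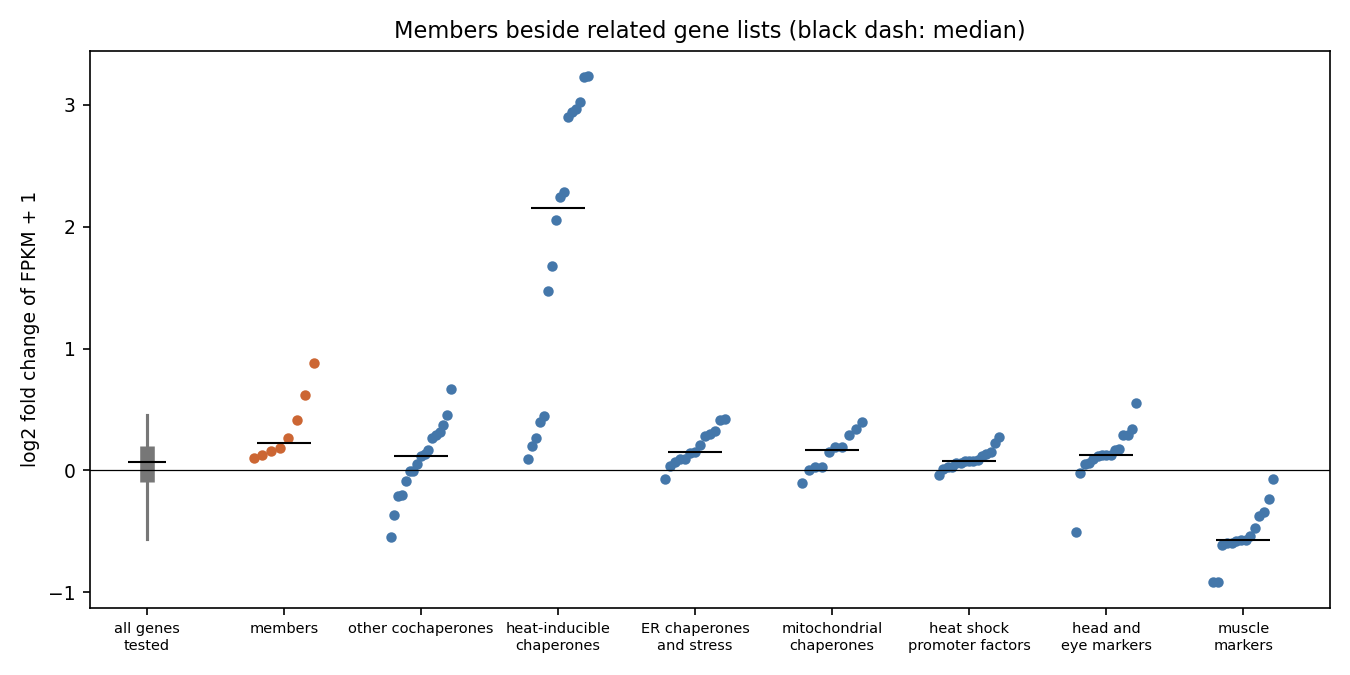
Log2 fold change of FPKM + 1 (vertical axis) for each gene (point) of the members and of 7 related lists, with medians as black dashes. For all genes tested the box spans percentiles 25 to 75 and the line 5 to 95. The heat-inducible genes reach 3.24, and Hsp83 at 0.88 is the highest member.

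The libraries followed one order in several of these genes, which was looked at after the values were seen. Hsp83 was lowest in repeat 1 and then repeat 2 without phenotype, followed by repeat 2 and then repeat 1 with phenotype. Hop, Hsf and Cdc37 had the same order of libraries, as had 11 of the 16 heat-inducible genes and 618 (6.06%) of all genes tested. Repeat 1 with phenotype exceeded repeat 2 in 15 of the 16 heat-inducible genes, and in 39.4% of all genes. It also did so in 13 of 17 other Hsp90 cochaperones, 12 of 15 head and eye markers and 10 of 14 muscle markers. The counts were 3 of 10 in the mitochondrial list and 0 of 12 in the digestive markers. The Hsp70 copies share reads, so their orders are not separate observations. CHIP, Fkbp59 and Trap1 were higher in repeat 2 instead.

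The profile of Hsp83 over the 4 libraries was closest to that of spin, a lysosomal transporter gene. Closeness is the root mean square difference of log2(FPKM + 1), centred per gene, among 6548 other genes averaging 10 FPKM or more. For spin, at 41.8 and 47.1 FPKM without and 87.5 and 73.6 FPKM with phenotype, it was 0.059. CG10026, CG3348, the transcription factor gene cbt and CG13641 came next, at 0.10 to 0.12. Hop was in place 14 at 0.16 and Gp93 in place 180 at 0.29. The other members were at 0.35 (Fkbp59) to 0.42 (CHIP), in places 628 to 2405. spin was the 1 gene within 0.1 of Hsp83, and the order describes these 4 libraries alone.

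**Figure D5:**
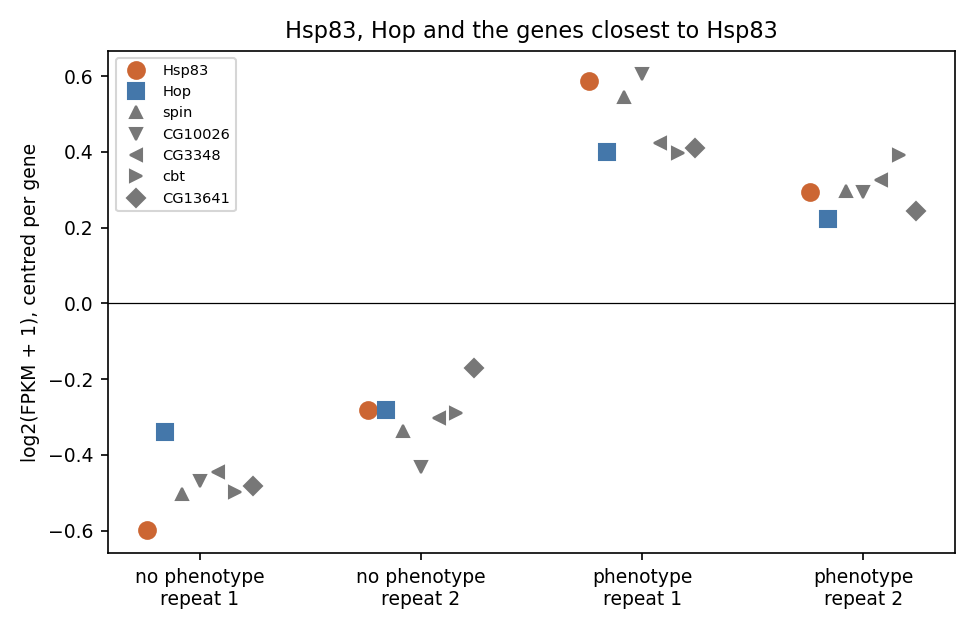
Log2(FPKM + 1), centred on each gene's mean over the 4 libraries (vertical axis), for Hsp83, Hop and the 5 genes closest to Hsp83 (grey). All 7 genes are below 0 in both libraries without phenotype and above 0 in both with phenotype. For the 5 grey genes this follows from their choice by closeness to Hsp83.

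Chaperone and stress response genes of the endoplasmic reticulum, the compartment of Gp93, had differences of the size of its own or less. Of 13 genes of that compartment's chaperones and stress response, 12 were higher with phenotype (62.7% of all genes), or 10 with median ratio scaling. The median log2 fold change was 0.15. The groups did not overlap in 10 genes that were higher, against 41.3% of all genes, and in 7 with median ratio scaling, against 29.2%. Hsc70-3, the Hsp70 of the endoplasmic reticulum, went from 167 and 137 FPKM to 214 and 191 FPKM in the group with phenotype, without overlap (log2 fold change 0.41, 95% interval 0.050 to 0.78, adjusted p = 0.19 from limma). CaBP1, a disulfide isomerase gene, was at 28.0 and 25.4 against 37.4 and 34.7 FPKM (log2 fold change 0.42, adjusted p = 0.15 from limma). Crc, the calreticulin gene, was at 274 and 261 against 329 and 322 FPKM. Pdi, another disulfide isomerase gene, was at 272 and 233 FPKM in the first group and at 274 and 254 FPKM in the second, with overlap. No gene of this list passed (smallest adjusted p = 0.15 from limma, 5 higher at an unadjusted p under 0.05, where 16.0% of all genes were).

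Mitochondrial chaperones and proteases, listed together with park and the kinase gene Pink1, had a median log2 fold change near that of Trap1 (0.18). The range was from -0.10 to 0.39, with park at its upper end. Of 10 genes 9 were higher with phenotype (62.7% of all genes), but 6 with median ratio scaling, and the median log2 fold change was 0.17. The groups did not overlap in 7 that were higher, against 41.3% of all genes. With median ratio scaling this held in 6, against 29.2%. Hsp60, the mitochondrial chaperonin, had 159 FPKM in both libraries without phenotype and 202 FPKM in both with it (log2 fold change 0.34, 95% interval 0.11 to 0.57, adjusted p = 0.16 from limma). The ubiquitin ligase gene park was at 10.7 and 11.3 FPKM in the first group and 13.9 and 15.7 FPKM in the second (log2 fold change 0.39, adjusted p = 0.15 from limma). Hsc70-5, the mitochondrial Hsp70, was at 103 and 104 against 111 and 100.2 FPKM, with overlap. No gene of this list passed (smallest adjusted p = 0.15 from limma, 4 higher at an unadjusted p under 0.05, where 16.0% of all genes were).

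Factors that act with Hsf at heat shock promoters were near the median of all genes. Of 15 genes 14 were higher with phenotype (62.7% of all genes), but 6 with median ratio scaling. Their median log2 fold change of 0.078 was close to the 0.070 of all genes. Their counts turned on the libraries without phenotype: 7 of 15 were higher with no overlap (41.3% of all genes), 14 without repeat 2 (56.6% of all genes) and 4 with median ratio scaling (29.2% of all genes). Without repeat 1, 9 of 15 had a higher mean (60.1% of all genes). The GAGA factor gene Trl, which keeps heat shock promoters accessible, was at 39.2 and 44.8 FPKM without and 41.6 and 39.8 FPKM with phenotype. CG5446 was at 31.8 and 35.4 FPKM in the first group and 33.5 and 37.5 FPKM in the second. The largest differences of the list were those of Nelf-A and Nelf-E, subunits of the pausing factor NELF, with Nelf-A at 15.9 and 16.7 against 19.5 and 20.4 FPKM (log2 fold change 0.27, adjusted p = 0.16 from limma) and Nelf-E at 13.0 and 13.1 against 15.6 and 15.2 FPKM (log2 fold change 0.22, adjusted p = 0.18 from limma). No gene of this list passed, and 2 were higher at an unadjusted p under 0.05, where 16.0% of all genes were.

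The study names Piwi as a partner of Hsp83 and Hop in developmental robustness. piwi, whose protein silences transposons in the germline, was at 1.12 and 1.32 FPKM in heads without and 1.95 and 2.04 FPKM in heads with phenotype, a low level in either group (log2 fold change of FPKM + 1 0.43, 95% interval 0.073 to 0.79, adjusted p = 0.18 from limma). Its relative aub, at 0.73 to 0.94 FPKM, did not pass the filter on low values. Kr itself was at 1.68 and 2.03 against 2.27 and 2.83 FPKM, with no overlap (adjusted p = 0.28 from limma). The histone methyltransferase gene trx was at 17.7 and 21.5 FPKM without and 20.5 and 20.0 FPKM with phenotype, and its groups overlapped. Of the 5 genes of this list that passed the filter, 4 were higher (62.7% of all genes), but 3 with median ratio scaling. None passed the test (smallest adjusted p = 0.18 from limma). Only piwi was higher at an unadjusted p under 0.05, as 16.0% of all genes were.

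Exons of 4 members overlap those of other genes in dm6, where reads could be shared. The overlaps are 15 bp between Hsp83 and CG14966, 59 bp between Fkbp59 and CG34183 and 101 bp between Gp93 and CG4951, each on the other strand, and Cdc37 overlaps the antisense RNA CR45818 by 371 bp and CG12020 by 3 bp. The overlapping protein genes were low, with CG4951 at 6.13 to 8.26 FPKM, CG14966 at 7.40 to 10.4 FPKM and CG34183 at 6.85 to 7.58 FPKM. The sources do not state whether the counting used strand.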

How the data were processed

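Poly-A RNA of 10 heads per library was sequenced as single-end reads. With Bowtie 2, alignment was to RefSeq mRNA sequences of dm6, and the authors deposited the FPKM per gene that RSEM gave, with 2 decimals. The submitters' processing notes also name dm3, which the methods give for DNA sequencing. Versions of these tools: not given in the sources used here. FPKM carry no read totals, so no count test was used. Of 173 genes in the lists, 172 matched a row. Coordinates are from Ensembl release 115.

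Log2(FPKM + 1) of genes averaging 1 FPKM or more was fitted with limma 3.58.1 (R 4.3.3; eBayes with trend, two-sided, Benjamini-Hochberg over all genes, threshold 0.1), since the study's EBSeq could not be run on FPKM. Ratios were compared by exact permutation. The fit was tested on simulated data with independent noise and planted changes larger than those of the members. That run does not show how often changes of the members' size would be found. Alternatives were a pseudocount, filters, scalings, no trend, a replicate block and leaving out libraries. Python 3.11.15 with pandas 2.3.3 made tables.

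The members and lists were chosen with earlier results of these data known. Named from each list were the 2 genes of highest mean and the 2 of largest change, with any past the threshold.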

Additional observations from a re-analysis of the deposited data

How the results depend on the processing

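All 8 log2 fold changes stayed above 0 in the 11 alternatives run for each member. Much of this was fixed in advance. A filter, the trend and a replicate block do not alter a log2 fold change. Leaving out a library cannot reverse one whose groups do not overlap, as in 7 of the 8 members. The scalings and, for CHIP, a library left out could have reversed a sign. With all libraries kept, only Hop with a filter of 5 FPKM crossed the threshold, at an unaltered 0.62 (adjusted p = 0.092 from limma). Its adjusted p ran from 0.092 to 0.24 in those fits. Leaving out each library in turn gave 0.72 to 1.04 for Hsp83, 0.53 to 0.71 for Hop, 0.28 to 0.54 for Gp93, 0.23 to 0.30 for Fkbp59, 0.18 to 0.19 for Trap1, 0.11 to 0.21 for Cdc37, 0.048 to 0.21 for Hsf and 0.025 to 0.18 for CHIP. With each library left out the log2 ratios to Hsp83 stayed below 0, as they must where the groups do not overlap. They ran from -0.10 to -0.37 for Hop and from -0.23 to -0.71 for Gp93. The cause of the spread was not tested. The 9 genes past the threshold became 23 with a pseudocount of 0.1, 109 with a filter of 5 FPKM, 3 without a filter, 4 with median ratio scaling, 5 without the trend, and 0 to 509 with a library left out (509 without repeat 1 and 142 without repeat 2 of the heads without phenotype, 0 without repeat 1 or without repeat 2 with phenotype, where 1525 and 817 had an unadjusted p under 0.05 from limma). Where a library was left out, the lone library of a group was taken to vary like the others.

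With a replicate block 0 genes passed (2070 at an unadjusted p under 0.05 from limma), and the adjusted p of Hsp83 and Hop was 0.23. The deviations of same-numbered libraries had a correlation of -0.13 across genes, and whether the numbers mark a shared cross or day is not known. A block that crossed the numbers, added after the data were seen, called 404 genes.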
